A study of Mus musculus with 6 samples.

Results

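The matrix metalloproteases (MMP), the ADAMTS proteases (a disintegrin and metalloprotease with thrombospondin motifs) and the tissue inhibitors of metalloproteases (TIMP) were described together as the genes named Mmp, Timp or Adamts followed by a number. Adamtsl genes were left out. The rule found 45 of the 22942 genes in the tables, made up of 22 MMP, 4 TIMP and 19 ADAMTS genes. Each gene was represented by its transcript with the highest mean level. The study sequenced messenger RNA from C3H-10T1/2, a mouse mesenchymal cell line that can become fat cells in culture, after 6 days of brown adipocyte differentiation. It compared 3 cultures given the solvent DMSO with 3 cultures given 4 uM 611, which the labels also name Cpd A and describe as inhibiting LSD1, a demethylase of histones, and its title asks which genes LSD1 regulates as brown adipocytes form. All 6 cultures received the same inducers for 72 h in 10% serum: insulin at 20 nM, T3 at 1 nM, rosiglitazone and dexamethasone at 1 uM each, indomethacin at 125 uM and isobutylmethylxanthine at 0.5 mM. Insulin, T3 and rosiglitazone were then continued without the other inducers. One label places the start of DMSO or 611 at seeding, another places it 12 h after seeding with induction 48 h later. All cultures came from 1 cell line, and none was taken without the inducers or at another dose.

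MMPs are zinc-dependent proteases that cut collagens, laminins, proteoglycans and other proteins outside the cell. Most are secreted as inactive proenzymes, and some are anchored in the cell membrane. TIMPs bind the active site of MMPs and block it, and Timp3 also blocks several ADAMTS and ADAM proteases. ADAMTS proteases trim large proteoglycans and remove the N-terminal propeptides of procollagens. In fat tissue these enzymes remodel the matrix around growing adipocytes, with the membrane-anchored Mmp14 known as a collagenase of adipocyte precursors.

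The members separated into genes with a clear level and genes at or near 0. A total of 27 of the 45 members, against 60.3% of all genes, passed the filter of at least 0.1 RPKM (reads per kilobase of transcript, scaled to the library total) in at least 3 libraries. Those 27 were the 4 TIMPs, 9 MMPs and 14 ADAMTS genes. The other 18 were too low to test, and 7 of them were listed at 0 in all 6 libraries. The tested member nearest to the filter was Adamts6, at a mean of 0.166 RPKM over the 6 libraries, and the untested member nearest to it was Mmp17, with a highest value of 0.0702 RPKM. Fold values are ratios of mean RPKM. Log2 fold changes come from limma on log2(RPKM + 1), which understates changes of low genes, and a gene was called at a Benjamini-Hochberg adjusted p below 0.05.

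Most of the MMPs too low to test, 9 of 13, sat side by side in the genome. The exceptions were Mmp9, Mmp17, Mmp21 and Mmp25. Mouse chromosome 9 holds a run of 10 neighbouring Mmp genes, of which 9 were in the tables: the collagenases Mmp1a, Mmp1b, Mmp8 and Mmp13, the stromelysins Mmp3 and Mmp10, the matrilysin Mmp7, the macrophage elastase Mmp12 and the tooth enamel protease Mmp20. None of the 9 passed the filter, 6 were at 0 in every library, and the highest value was 0.0366 RPKM. To show how the start regions of this run differ from those of members with high levels, 5 are printed here, each as the 250 bases before the annotated start. They are from RefSeq on build GRCm38.p6, while the deposited levels were made on mm9. Capitals mark 3 motifs searched on both strands. The AP-1-type site was searched as TGANTCA. A match to TATAAA was counted as a TATA-type box, a class of element found shortly before the start of many inducible genes. The letters of the GC box, which Sp1-type factors are known to bind, were GGGCGG. AP-1 is a dimer of Fos and Jun proteins known as an inducer of collagenase and stromelysin genes. Mmp13 and Mmp3 stand for this run, and Mmp14, Timp2 and Adamts1 for the members with the highest level of their family in cultures with 611.
Mmp13 (chr9:7272264-7272513, plus strand): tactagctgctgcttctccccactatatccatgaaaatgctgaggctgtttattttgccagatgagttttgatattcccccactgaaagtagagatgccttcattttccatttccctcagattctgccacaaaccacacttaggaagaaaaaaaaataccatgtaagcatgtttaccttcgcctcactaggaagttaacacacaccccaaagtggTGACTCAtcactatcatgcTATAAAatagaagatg
Mmp3 (chr9:7445572-7445821, plus strand): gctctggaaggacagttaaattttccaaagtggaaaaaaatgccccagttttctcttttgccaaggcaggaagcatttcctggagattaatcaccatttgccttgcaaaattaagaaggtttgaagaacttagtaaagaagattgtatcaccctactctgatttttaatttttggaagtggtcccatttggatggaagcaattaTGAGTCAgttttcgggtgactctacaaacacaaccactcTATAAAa
Mmp14 (chr14:54431348-54431597, plus strand): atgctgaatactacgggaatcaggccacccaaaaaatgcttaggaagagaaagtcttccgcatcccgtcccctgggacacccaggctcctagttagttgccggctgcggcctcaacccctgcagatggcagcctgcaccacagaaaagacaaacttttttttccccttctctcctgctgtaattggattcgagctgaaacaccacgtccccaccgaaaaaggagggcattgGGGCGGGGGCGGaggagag
Timp2 (chr11:118355412-118355661, minus strand): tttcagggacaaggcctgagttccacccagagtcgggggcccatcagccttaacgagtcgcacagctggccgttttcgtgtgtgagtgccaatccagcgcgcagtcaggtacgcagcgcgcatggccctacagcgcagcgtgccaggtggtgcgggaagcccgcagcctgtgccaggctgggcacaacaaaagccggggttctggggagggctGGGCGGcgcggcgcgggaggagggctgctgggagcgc
Adamts1 (chr16:85803114-85803363, minus strand): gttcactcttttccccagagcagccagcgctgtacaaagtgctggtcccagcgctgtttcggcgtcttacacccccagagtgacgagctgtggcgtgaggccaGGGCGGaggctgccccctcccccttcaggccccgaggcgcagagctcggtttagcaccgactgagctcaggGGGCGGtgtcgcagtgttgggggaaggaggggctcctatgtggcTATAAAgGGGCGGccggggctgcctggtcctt

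The 250 bases before Mmp13 held an AP-1-type site beginning 35 bases before the start and a TATA-type box beginning 16 bases before it. In Mmp3 the same pair began 46 and 7 bases before the start. Mmp14 held GC boxes beginning 19 and 13 bases before the start, and Timp2 held 1 beginning 37 bases before it. Adamts1 held a TATA-type box beginning 32 bases before the start beside 3 GC boxes. These matches are letters in a window and say nothing of binding.

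RefSeq windows of 250 bases before to 50 bases after the start were found for 31 of the 45 members. A few genes have more than 1 window, and a gene was counted where any of its windows held the motif. In the run on chromosome 9, 8 of the 9 genes held both an AP-1-type site and a TATA-type box. The exception was Mmp8, which held a TATA-type box alone. Both together were found in 1.84% of the 27025 genes with a window. These counts take a match at any position in the window and on either strand. The TATA-type match of Mmp12 began 4 bases after the start, and those of Mmp1b and Mmp20 began 49 and 58 bases before it. In Mmp8 the match lay on the opposite strand, 3 bases before the start. None of the 9 held a GC box, and the window richest in CpG dinucleotides had 0 to 7 of them per gene. Of the other 22 members, 0 held an AP-1-type site, 2 held a TATA-type box (Adamts1 and Mmp21) and 18 held a GC box, with a median of 21 CpG dinucleotides. The 18 with a GC box include 5 members too low to test (Adamts3, Adamts13, Adamts18, Adamts20 and Mmp25). Of the untested members outside the run that had a window, only Mmp21 held no GC box. Over all 27025 genes the shares were 8.97% for the AP-1-type site, 15.7% for the TATA-type box and 38.2% for the GC box, with a median of 8 CpG dinucleotides. An E-box (CACGTG) was also searched and was found for 2 members, Adamts17 and Mmp7, against 8.09% of all genes. The motifs were chosen after the levels were known, and neighbouring genes that arose by duplication share sequence, so these shares are a description without a test.

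**Figure D1:**
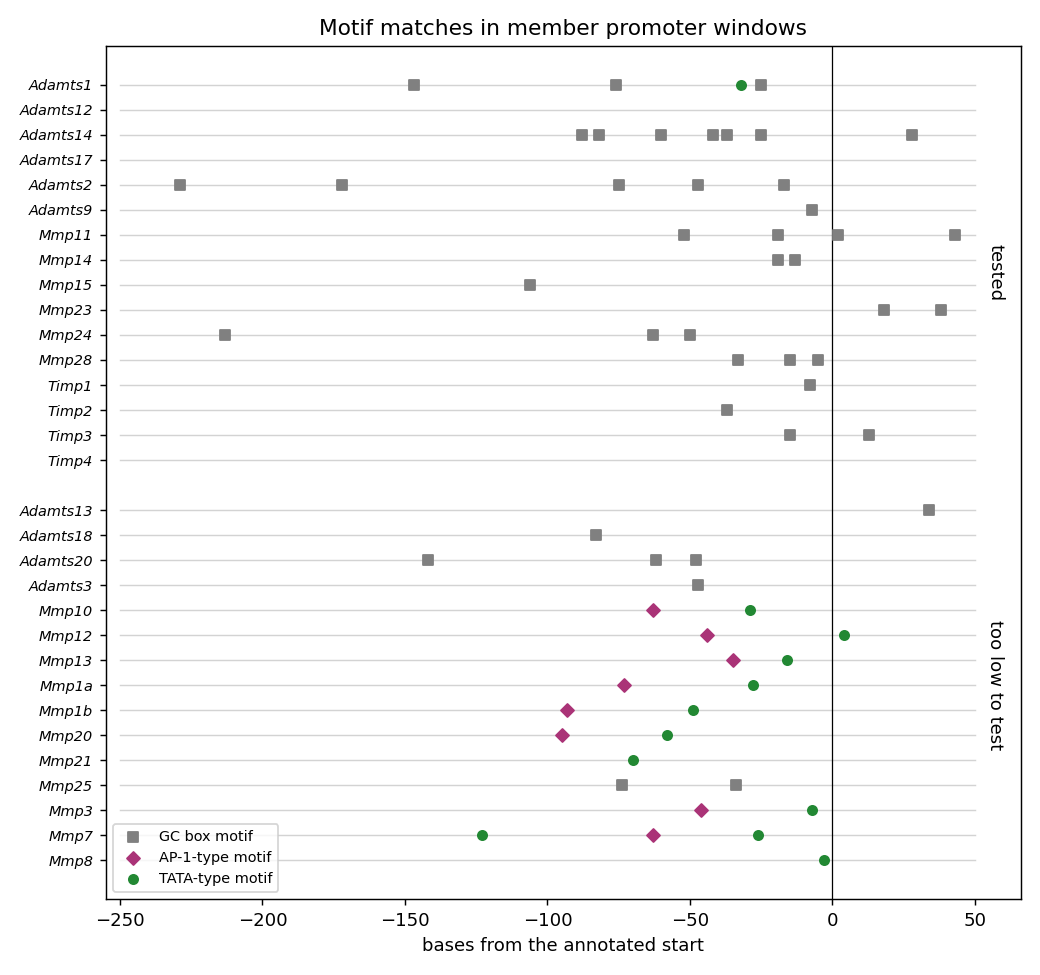
Motif matches in the windows of the 31 members that had one. The x axis is the distance of a motif's first base from the annotated start, in bases; squares are GC boxes, diamonds AP-1-type sites and circles TATA-type boxes, with tested members above and members too low to test below. All 8 AP-1-type sites lie in windows of members too low to test, while 13 of the 16 tested members hold a GC box. Of the 15 members too low to test, 5 hold a GC box, and all 5 lie outside the run on chromosome 9.

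Among the tested members, levels were mostly higher in cultures with 611. The limma test called 16 of the 27 higher (59.3%, against 41.6% of the 13829 genes tested), 4 lower (against 17.7%), and left 7 without a call. All 3 libraries with 611 lay above all 3 DMSO libraries for 15 of the 27 (against 45.8% of tested genes) and below them for 3 (against 20.4%). The median log2 fold change was 0.26 for the 27 members and 0.10 for all tested genes. Median-of-ratios scaling between libraries moved the median of all genes by 0.11 on the log2 scale, after which 14 members were higher (against 28.5% of genes) and 5 lower (against 28.6%), with a median of 0.20. A total of 8 members rose by at least 1 on the log2 scale (Timp1, Timp2, Timp3, Mmp2, Mmp14, Mmp16, Adamts1 and Adamts5), or 29.6% of the tested members against 3.59% of all tested genes. After scaling 5 of the 27 did, against 2.25%. The cut and the ranks use log2(RPKM + 1), which holds down low genes among members and all genes alike. Adamts2, Adamts6 and Adamts16 were called higher at RPKM ratios of 2.26, 2.20 and 5.66 but fell short of the cut. By rank of log2 fold change among the 13829 genes, Timp2 was 10, Mmp14 39, Timp3 47 and Adamts5 53 from the top.

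**Figure D2:**
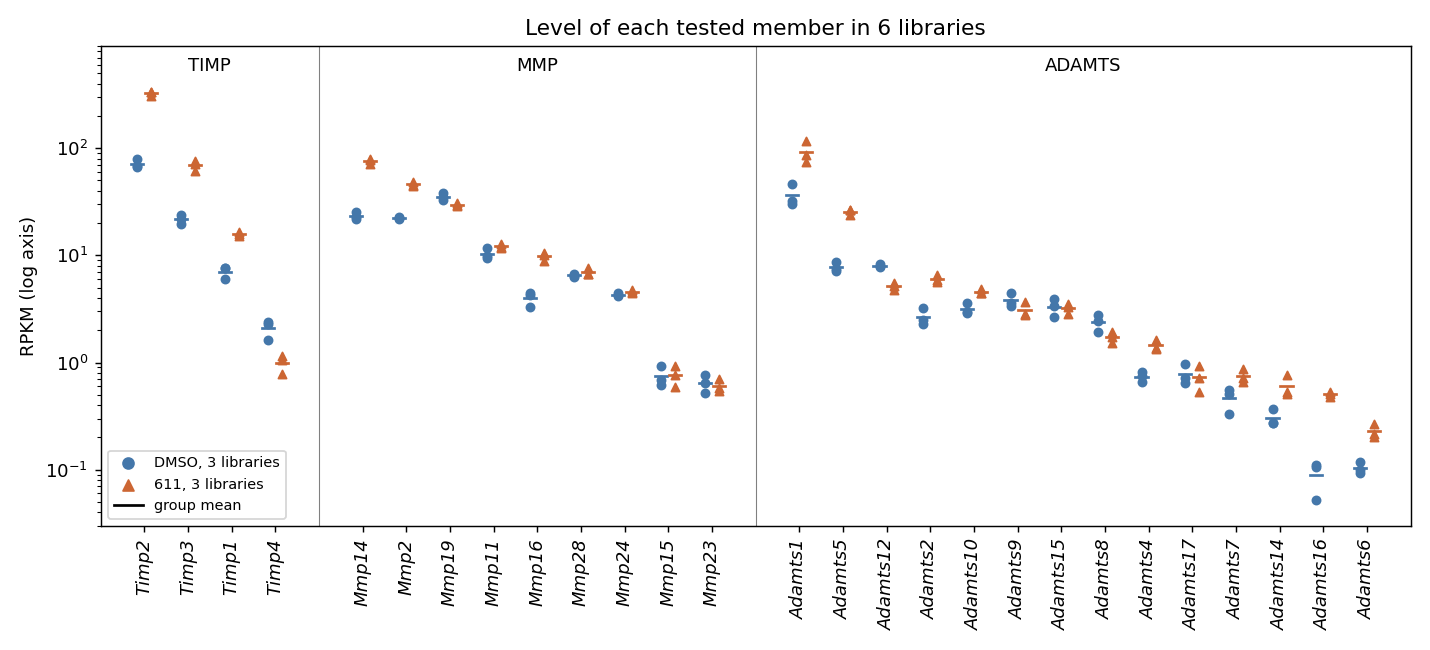
Level of each of the 27 tested members in RPKM, on a log axis, with 1 point per library and a bar at the group mean. Timp2, at 305 to 337 RPKM with 611, is the highest member, and Timp4, Mmp19, Adamts8 and Adamts12 are the members called lower.

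**Figure D3:**
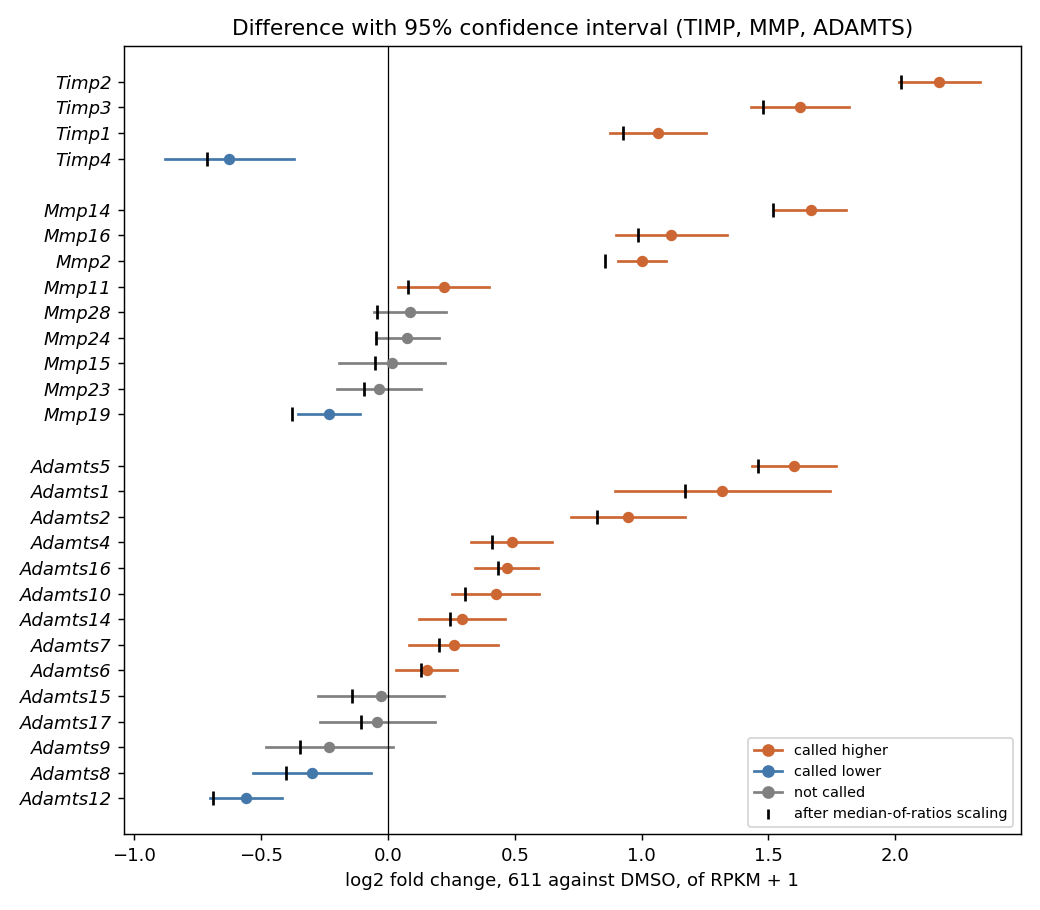
Log2 fold change of RPKM + 1 in 611 against DMSO for the 27 tested members, with the 95% confidence interval from limma and a tick at the value after median-of-ratios scaling. Timp2, Mmp14, Timp3 and Adamts5 lie farthest to the right, between 1.60 and 2.17, while Timp4 and Adamts12 lie farthest to the left.

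Of the 4 inhibitors, Timp1, Timp2 and Timp3 rose and Timp4 fell. Timp2, which blocks MMPs and also joins Mmp14 in the activation of Mmp2 at the cell surface, stood at 67.7, 79.5 and 67.0 RPKM in DMSO replicates 1, 2 and 3. With 611 it stood at 305, 337 and 333 RPKM. The lowest culture with 611 was far above the highest DMSO culture, a 4.55-fold difference (log2 fold change 2.17, SE 0.07, limma adjusted p = 2.6e-07). After scaling the log2 fold change was 2.02. Timp3, the inhibitor held in the matrix, was at 19.8, 23.9 and 21.7 RPKM with DMSO and at 61.5, 75.6 and 71.3 RPKM with 611. Its groups did not overlap and differed 3.19-fold (log2 fold change 1.63, SE 0.08, limma adjusted p = 1.3e-06).

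Timp1, a secreted inhibitor often induced in wounded tissue, was at 7.63, 7.55 and 5.97 RPKM with DMSO and at 16.4, 15.8 and 15.1 RPKM with 611. Every culture with 611 was higher, by 2.24-fold on average (log2 fold change 1.07, SE 0.08, limma adjusted p = 9.6e-06). Timp4, the inhibitor with the narrowest tissue range, went the other way. It was at 1.62, 2.29 and 2.37 RPKM with DMSO and at 1.16, 0.789 and 1.05 RPKM with 611. The groups did not overlap, and Timp4 was 2.09-fold lower (log2 fold change -0.62, SE 0.11, limma adjusted p = 0.0012). Each of the 4 TIMP genes overlaps another coding gene on the reference: Syn1 for Timp1, Cep295nl for Timp2, Syn3 for Timp3 and Syn2 for Timp4. Syn2 itself was at a mean of 4.71 RPKM with DMSO and 3.16 RPKM with 611, and the other 3 partners were below 0.47 RPKM in every library. These overlaps were read from whole gene spans, without comparing exons. The sources used here do not give whether the RPKM values used strand, and whether Timp4 and Syn2 shared reads was not tested.

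The TIMP genes differed 4.02-fold in summed level, from 96.7, 113 and 97.0 RPKM with DMSO to 384, 429.5 and 420 RPKM with 611. Timp2 made up 69.7% of that sum with DMSO and 79.0% with 611, so the sum mostly follows Timp2. In level the order was Timp2, Timp3, Timp1, Timp4 in every library of both groups. The plot of summed levels shows the same 6 libraries for each family. Sums and ratios of sums are given as descriptions without a test.

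**Figure D4:**
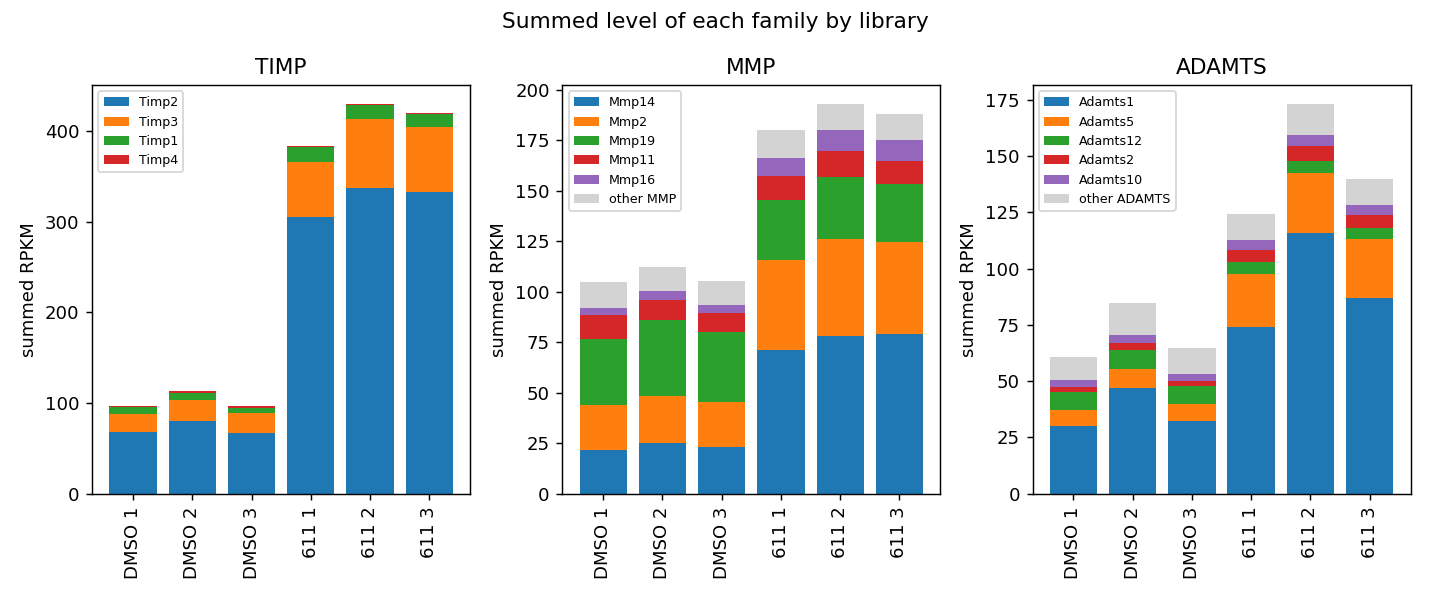
Summed RPKM of the TIMP, MMP and ADAMTS genes in each library, stacked by gene, with all axes starting at 0. The TIMP sum runs from 96.7 to 113 RPKM with DMSO and from 384 to 429.5 RPKM with 611, and Mmp14 takes the place of Mmp19 as the largest part of the MMP sum.

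Among the 9 tested MMPs, Mmp2, Mmp14, Mmp16 and Mmp11 were called higher and Mmp19 lower, while Mmp15, Mmp23, Mmp24 and Mmp28 had no call. The share called higher, 44.4%, was near that of all tested genes, and the median log2 fold change of the 9 was 0.09 and became -0.04 after scaling. Mmp2, Mmp14 and Mmp16 stood apart from the other 6, none of which differed by more than 1.18-fold. Mmp14, the membrane-anchored collagenase that activates pro-Mmp2, was at 21.7, 25.3 and 22.9 RPKM with DMSO and at 71.2, 77.9 and 79.0 RPKM with 611. The groups were far apart and differed 3.26-fold (log2 fold change 1.67, SE 0.06, limma adjusted p = 3.8e-07). Mmp2, the gelatinase that Mmp14 activates, was at 22.01, 23.02 and 22.43 RPKM with DMSO and at 44.6, 48.1 and 45.4 RPKM with 611. Both groups were tight, and Mmp2 rose 2.05-fold (log2 fold change 1.00, SE 0.04, limma adjusted p = 5.2e-07). Mmp16, another membrane-anchored activator of pro-Mmp2, was at 3.32, 4.43 and 4.24 RPKM with DMSO and at 8.84, 10.4 and 10.2 RPKM with 611. All cultures with 611 were above all with DMSO, by 2.46-fold on average (log2 fold change 1.12, SE 0.10, limma adjusted p = 1.6e-05).

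Mmp19, a secreted MMP of broad substrate range, was the MMP with the highest level in DMSO cultures and the only tested MMP called lower. It was at 33.0, 37.8 and 34.7 RPKM with DMSO and at 29.8, 30.8 and 28.7 RPKM with 611. The groups did not overlap, and the difference was small, 1.18-fold lower (log2 fold change -0.23, SE 0.05, limma adjusted p = 0.0054). After scaling it was -0.38. On the reference Mmp19 overlaps Tmem198b, at a mean of 17.5 RPKM with DMSO and 19.0 RPKM with 611.

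Mmp11, stromelysin-3, which is activated inside the cell by furin, was at 11.8, 9.80 and 9.37 RPKM with DMSO and at 11.9, 12.7 and 11.8 RPKM with 611. The groups overlapped, and the call rested on a 1.18-fold difference (log2 fold change 0.22, SE 0.08, limma adjusted p = 0.037). It was lost after scaling (adjusted p = 0.43) and with no filter on low values (0.072). The call was also lost without DMSO replicate 2 or 3 or any 1 of the 3 libraries with 611 (limma adjusted p from 0.061 to 0.12).

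The other 4 tested MMPs had no call. Mmp28, epilysin, was at 6.75, 6.44 and 6.32 RPKM with DMSO and at 7.63, 6.65 and 6.69 RPKM with 611, a log2 fold change of 0.09 with a 95% interval from -0.05 to 0.23. Mmp24, a membrane-anchored MMP, was at 4.45, 4.23 and 4.18 RPKM with DMSO and at 4.44, 4.56 and 4.73 RPKM with 611, a log2 fold change of 0.08 with an interval from -0.05 to 0.20. Both groups overlapped for each of these genes, and both signs turned after scaling, to -0.04 for Mmp28 and -0.05 for Mmp24. The membrane-anchored Mmp15 averaged 0.745 RPKM with DMSO and 0.764 RPKM with 611, and Mmp23 averaged 0.648 and 0.607 RPKM, with limma adjusted p-values of 0.9 and 0.71. On the reference Mmp28 overlaps 1700020L24Rik (means of 8.004 and 8.096 RPKM) and Mmp23 overlaps Mib2 (4.73 and 5.55 RPKM), so part of their reads may be shared.

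The summed MMP level was 105, 112 and 105 RPKM with DMSO and 180, 193 and 188 RPKM with 611, 1.74-fold higher. Its make-up differed between the groups. Mmp19 held 32.7% of the sum with DMSO and 15.9% with 611, while Mmp14 went from 21.6% to 40.7% and Mmp2 from 20.9% to 24.6%. The ratio of summed TIMP to summed MMP level was 0.924, 1.01 and 0.921 with DMSO and 2.13, 2.23 and 2.24 with 611. Without Timp2 the same ratio was 0.278, 0.300 and 0.285 with DMSO and 0.440, 0.478 and 0.465 with 611. Both versions had no overlap between the groups. Within the trio of Timp2, Mmp14 and Mmp2, the ratio of Timp2 to Mmp14 was 3.11, 3.15 and 2.93 with DMSO and 4.28, 4.33 and 4.21 with 611. The ratio of Mmp2 to Mmp14 was 1.01, 0.911 and 0.981 with DMSO and 0.626, 0.617 and 0.575 with 611. These are ratios of RNA levels, not of protein or activity.

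The 13 untested MMPs held few or no reads. Mmp13, a collagenase of cartilage and bone, had 4 reads in 611 replicate 1 (0.0366 RPKM) and none in the other 5 libraries, where 3 reads would have been 0.0272 to 0.0289 RPKM. Mmp9, the other gelatinase, was at 0 in all DMSO cultures and at 0, 0.0232 and 0.0467 RPKM with 611. Mmp21 had 1, 2 and 3 reads in the DMSO libraries and 0 in the libraries with 611. No difference can be told at such counts, and limits from 3 reads cover counting error only. Mmp3 had 1 read in DMSO replicate 2 and Mmp12 had 2 in DMSO replicate 1. The membrane-anchored Mmp17 and Mmp25 stayed at or below 0.0702 RPKM, and Mmp1a, Mmp1b, Mmp7, Mmp8, Mmp10 and Mmp20 were at 0 throughout. Gelatinase RNA in these cultures was therefore nearly all Mmp2.

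Of the 14 tested ADAMTS genes, 9 were called higher, 2 lower and 3 had no call, with a median log2 fold change of 0.28 (0.22 after scaling). The share called higher was 64.3%, against 41.6% of all tested genes. The list of proteoglycanases, which cut aggrecan and versican, has 7 genes. Adamts1, the ADAMTS gene with the highest level in both groups, was at 30.2, 46.7 and 32.3 RPKM with DMSO and at 74.0, 116 and 86.9 RPKM with 611. Replicate 2 was the highest culture of each group, and the groups did not overlap. Adamts1 rose 2.53-fold (log2 fold change 1.32, SE 0.18, limma adjusted p = 0.00031), and by pair of replicate numbers the log2 differences were 1.27, 1.29 and 1.40. Adamts5, the main aggrecanase of mouse cartilage, was at 7.11, 8.65 and 7.54 RPKM with DMSO and at 23.6, 26.8 and 26.3 RPKM with 611. The groups were well apart, at 3.29-fold (log2 fold change 1.60, SE 0.07, limma adjusted p = 7.8e-07). Adamts1 and Adamts5 are neighbouring coding genes on chromosome 16 of the reference, and both rose.

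Adamts4, the other aggrecanase, was at 0.750, 0.815 and 0.656 RPKM with DMSO and at 1.36, 1.63 and 1.34 RPKM with 611. Its groups did not overlap, at 1.95-fold (log2 fold change 0.49, SE 0.07, limma adjusted p = 0.00036).

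Adamts8, Adamts9 and Adamts15, the other proteoglycanases with a level above the filter, were not called higher. Adamts8 was at 1.91, 2.76 and 2.42 RPKM with DMSO and at 1.94, 1.51 and 1.72 RPKM with 611. The groups overlapped, and it was called lower by 1.37-fold (log2 fold change -0.30, SE 0.10, limma adjusted p = 0.032). The call was lost with no filter on low values (limma adjusted p = 0.069) and without DMSO replicate 2 or 3 or 611 replicate 2 or 3 (0.072 to 0.10). Pair 1 alone differed by 0.01 on the log2 scale. Adamts9, a versican-cutting member, was at 3.35, 4.41 and 3.61 RPKM with DMSO and at 2.81, 3.71 and 2.75 RPKM with 611, and had no call (log2 fold change -0.23, interval from -0.48 to 0.02, limma adjusted p = 0.10). It was lower with 611 in all 3 pairs, and was called lower with the replicate number as a block (adjusted p = 0.0085), after scaling (0.021) and without 611 replicate 2 (0.02). Adamts15 was at 2.68, 3.91 and 3.39 RPKM with DMSO and at 2.85, 3.51 and 3.33 RPKM with 611. Its groups lay over each other, with a log2 fold change of -0.03 and an interval from -0.27 to 0.22. Adamts8 and Adamts15 are neighbouring coding genes on chromosome 9. The remaining proteoglycanase, Adamts20, was at most 0.0128 RPKM.

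Both measured procollagen N-proteinases rose, and Adamts3 was at 0 in all libraries. Adamts2, which removes the N-propeptide of procollagens I to III, was at 2.50, 3.24 and 2.27 RPKM with DMSO and at 5.64, 6.53 and 5.95 RPKM with 611. The groups did not overlap, at 2.26-fold (log2 fold change 0.95, SE 0.10, limma adjusted p = 5.1e-05). Adamts14 averaged 0.304 ± 0.0559 RPKM with DMSO and 0.599 ± 0.139 RPKM with 611 (SD, n = 3), 1.97-fold higher (log2 fold change 0.29, limma adjusted p = 0.0088).

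Adamts12 and Adamts7, both known to cut the cartilage protein COMP, moved in opposite directions. Adamts12 was at 7.73, 8.39 and 7.95 RPKM with DMSO and at 5.17, 5.50 and 4.72 RPKM with 611. No culture with 611 reached the DMSO range, and Adamts12 was 1.56-fold lower (log2 fold change -0.56, SE 0.06, limma adjusted p = 7.9e-05). Adamts7 was at 0.506, 0.551 and 0.333 RPKM with DMSO and at 0.724, 0.863 and 0.663 RPKM with 611, 1.62-fold higher (log2 fold change 0.26, limma adjusted p = 0.017). The Adamts7 call was lost without DMSO replicate 3 (adjusted p = 0.062) or 611 replicate 2 (0.06).

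Among the remaining ADAMTS genes, Adamts10, a partner of fibrillin microfibrils, was at 2.96, 3.59 and 2.91 RPKM with DMSO and at 4.47, 4.81 and 4.43 RPKM with 611. It was higher in every culture with 611, by 1.45-fold (log2 fold change 0.43, SE 0.07, limma adjusted p = 0.0012). Adamts16 was low in both groups, at 0.0517, 0.111 and 0.106 RPKM with DMSO and at 0.512, 0.473 and 0.536 RPKM with 611, and its ratio of 5.66 was the largest of the tested members (log2 fold change 0.47, limma adjusted p = 0.0001). Adamts6 had 22, 18 and 19 reads with DMSO and 40, 53 and 42 with 611. It passed the filter mainly through the cultures with 611, and its call (limma adjusted p = 0.033) was lost after scaling (0.057), with the replicate block (0.05) and without any 1 library (0.052 to 0.11). Adamts17 averaged 0.778 and 0.730 RPKM and had no call. Adamts18, Adamts19 and the von Willebrand factor protease Adamts13 were at or below 0.0107 RPKM.

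The summed ADAMTS level was 60.8, 84.6 and 64.6 RPKM with DMSO and 124, 173 and 140.0 RPKM with 611, 2.08-fold higher. Adamts1 alone made 51.6% of it with DMSO and 62.8% with 611, Adamts5 went from 11.2% to 17.7%, and Adamts12 from 11.7% to 3.6%. The ratio of Timp3 to Adamts5, the inhibitor and its aggrecanase target, was 2.78, 2.76 and 2.88 with DMSO and 2.61, 2.83 and 2.71 with 611, with overlapping groups. That differs from Timp2 and Mmp14, whose ratio did not overlap between the groups.

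Genes that activate, inhibit or resemble the members were read from 7 lists with 50 entries, of which 31 were tested. The limma test called 19 of them higher and 4 lower, with a median log2 fold change of 0.45. The shares over all tested genes were 41.6% higher and 17.7% lower (median log2 fold change 0.10), and the counts of each list below stand against them. The procollagen C-proteinase list had 4 of 4 higher. Among them were Bmp1, which removes the C-propeptide (12.4 ± 0.666 to 25.0 ± 0.518 RPKM, 2.01-fold), and its enhancer Pcolce (54.1 ± 3.36 to 139 ± 7.89 RPKM, 2.56-fold). The lowest of the 4 had means of 0.129 and 0.315 RPKM (limma adjusted p = 0.017). Its call was lost without DMSO replicate 2 or 611 replicate 2 (limma adjusted p from 0.059 to 0.063). The N-proteinase Adamts2 and the C-proteinase Bmp1 thus both stood higher with 611. Of the ADAMTS-like proteins, which lack a protease domain, 2 of 3 tested were higher, with Adamtsl3 at 3.98 ± 0.366 and 16.7 ± 0.610 RPKM (4.19-fold, limma adjusted p = 2.8e-07) and Adamtsl4 at 4.04 ± 0.131 and 10.8 ± 0.240 RPKM (2.67-fold). All such values are means ± SD over n = 3 cultures, DMSO before 611.

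In the plasminogen system, whose product plasmin activates several pro-MMPs, 4 of 5 tested genes were called higher. The inhibitor Serpine2 rose from 16.7 ± 2.63 to 50.02 ± 8.27 RPKM (3.00-fold) and the activator Plat from 0.750 ± 0.0954 to 2.33 ± 0.296 RPKM (3.10-fold). An inhibitor and an activator of the system were thus both higher with 611. Among the proprotein convertases, which cut the propeptides of membrane-anchored MMPs and ADAMTS proteases, Furin went from 9.76 to 11.8 RPKM (limma adjusted p = 0.0055, and 0.13 after scaling). Pcsk6 was 1.45-fold lower, at 11.005 ± 0.186 and 7.58 ± 0.565 RPKM.

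All 3 tested genes of other inhibitors and clearance were higher. Reck, a membrane-bound MMP inhibitor, rose from 2.86 ± 0.314 to 6.53 ± 0.421 RPKM (2.29-fold), and Lrp1, the endocytic receptor that clears MMPs, ADAMTS proteases and TIMPs, from 28.8 ± 1.95 to 59.6 ± 2.50 RPKM (2.07-fold). Of the 8 tested ADAM metalloproteases, 4 were higher and 1 lower, near the shares over all tested genes. The shedding enzyme Adam10 rose from 17.9 ± 0.422 to 31.8 ± 1.64 RPKM and Adam19 from 2.42 ± 0.179 to 4.62 ± 0.787 RPKM, while Adam12 fell from 69.1 ± 0.0991 to 50.9 ± 3.04 RPKM (1.36-fold lower, limma adjusted p = 5.1e-05). Of 5 other matrix proteases, the cathepsin genes Ctsl (57.9 to 68.2 RPKM, adjusted p = 0.0022, and 0.19 after scaling) and Ctsb (153 to 131 RPKM, adjusted p = 0.0016) were the calls.

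Of the members' substrates 18 of 20 were tested, and limma called 13 higher and 4 lower, against 41.6% and 17.7% of all tested genes, with a median log2 fold change of 0.93. The number lower was near that share. The fibronectin gene Fn1 was at means of 64.9 and 211 RPKM (3.25-fold) and Col1a1 at 80.6 ± 6.70 and 206 ± 11.1 RPKM (2.56-fold, limma adjusted p = 9.6e-07). The basement membrane collagens Col4a1 (280 to 240 RPKM) and Col4a2 (171 to 146 RPKM) were called lower by 1.17-fold, with limma adjusted p-values of 0.016 and 0.017. Both calls were lost without DMSO replicate 1, 611 replicate 2 or 611 replicate 3 (adjusted p from 0.055 to 0.060), and 2 substrates in place of 4 were then called lower.

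**Figure D5:**
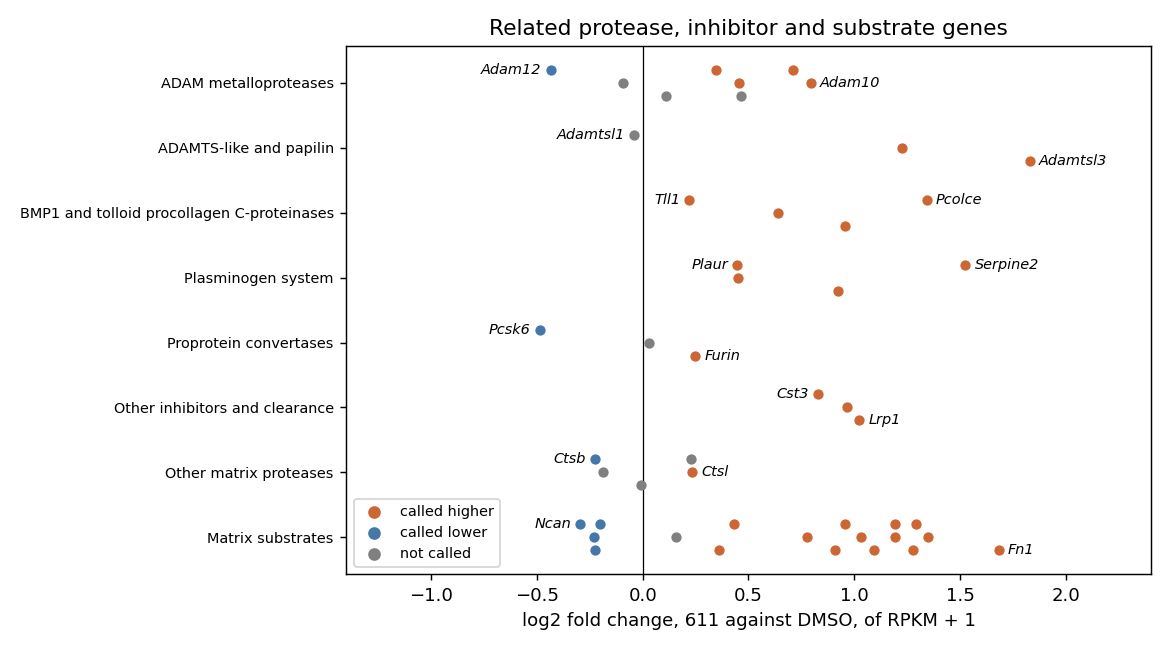
Log2 fold change of RPKM + 1 in 611 against DMSO for the tested genes of 7 related protease and inhibitor lists and 1 list of matrix substrates, 1 point per gene, coloured by its call, with 1 gene left out. Adamtsl3, Fn1, Serpine2 and Pcolce lie at the right and Pcsk6 and Adam12 at the left.

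Marker genes of cell types were read in the same way, where 41.6% of all tested genes were called higher and 17.7% lower. All 7 tested adipocyte markers were lower with 611, with a summed level of 22928 to 24338 RPKM with DMSO and 11917 to 13251 RPKM with 611, and Ucp1, the marker of brown adipocytes, was at 0 in all 6 libraries. All 7 tested fibroblast and progenitor markers were higher, with sums of 668 to 731 and 1427 to 1575 RPKM. The adipocyte sum mostly follows Fabp4 (means of 21052 and 10946 RPKM) and the fibroblast and progenitor sum mostly follows Vim (547 and 1067 RPKM). Fewer cells of a type and less RNA per cell cannot be told apart in these bulk libraries, and the part of these markers in the members' differences was not tested. Chondrocyte markers summed to 10.3 to 11.03 RPKM with DMSO and 24.1 to 25.3 RPKM with 611, mostly Sox9 (means of 8.63 and 18.9 RPKM). Of the 4 tested genes of this list 2 were called higher, near the share over all tested genes, and Acan and Matn1 were at 0. Osteoblast markers summed to 3.24 to 3.59 and 5.52 to 6.02 RPKM. That sum mostly follows Runx2, called higher at means of 2.15 and 5.25 RPKM, while Alpl was called lower (1.02 and 0.498 RPKM). Of the osteoblast markers too low to test, Bglap, Ibsp and Dmp1 had lower means with 611 and Sp7 a higher one. Macrophage markers, of a cell type rich in Mmp12 and Mmp9, summed to 0.921 to 1.24 and 1.46 to 2.53 RPKM, with Ptprc, Itgam and Tyrobp at 0 in all libraries. Of this list Cd14, which made up most of the sum, was called higher (0.912 ± 0.186 to 1.63 ± 0.517 RPKM, limma adjusted p = 0.018, and 0.061 without DMSO replicate 1). Lyz2 was higher in every culture with 611 without a call (means of 0.112 and 0.216 RPKM, limma adjusted p = 0.056). Lyz2 was called under 4 alternatives (pseudocounts of 0.1 and 0.5, no filter and no variance trend). Neutrophil markers summed to 2.20 to 3.04 and 1.43 to 3.24 RPKM, mostly S100a8, with S100a9 at 0. Endothelial markers summed to 0.0875 to 0.232 RPKM with DMSO and 0.313 to 0.323 RPKM with 611, with Cdh5, Kdr and Tie1 at 0. Tek, the only tested endothelial marker, was called higher (means of 0.0852 and 0.254 RPKM, limma adjusted p = 0.0075). It passed the filter mainly through the cultures with 611, since it was at 0.0719 to 0.102 RPKM with DMSO.

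Depth was even: the library totals ran from 3.89e+07 to 4.12e+07, with 15732 to 16021 genes detected in each. Kdm1a, which encodes LSD1, was at 9.09 ± 0.331 RPKM with DMSO and 11.3 ± 0.331 RPKM with 611 (SD, n = 3, 1.25-fold, limma adjusted p = 0.00074). An inhibitor of the protein need not change its RNA, so this is no check of the labels. The libraries of a group are biological triplicates per the series' design text, and p-values measure the spread between these cultures only.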

How the data were processed

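Per the labels' protocols, RNA was extracted with TRIzol and a stranded kit for mRNA was used for the libraries. TopHat2 version 2.0.12, TopHat, SAMtools and the build mm9 were used, per the submitters' processing notes. The authors deposited 1 table per library of RPKM values for 28430 RefSeq transcripts. Which program made the RPKM values, and whether it used strand, was not given in the sources used here. Because of that, and since exons were not compared, whether overlapping genes share reads was not tested. Of the transcripts with few reads, 41.5% to 42.3% per library were at whole multiples of 1 read, within 0.02, at reference transcript lengths, a clear peak that gave library totals of 3.89e+07 to 4.12e+07. Reads and 3-read limits are given only for members that came out whole. A unit in these totals may be a read or a read pair.

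Symbols came from RefSeq (GRCm38.p6), matched for 27789 transcripts, and unnamed transcripts held 1.50% of the summed RPKM. The transcript with the highest mean RPKM stood for its gene. limma 3.58.1 with trend (R 4.3.3, Python 3.11.15) was fitted to log2(RPKM + 1) with group as the only term, over the 13829 genes with at least 0.1 RPKM in at least 3 libraries. P-values were Benjamini-Hochberg adjusted over all of these, with a threshold of 0.05. The fit was also run on simulated data with few changed genes and no variation shared by same-numbered libraries. That setting differs from these data, so the run is no check of the calls given here. Libraries of the same number varied together. Deviations of same-numbered libraries from their group means correlated at 0.30, 0.30 and 0.18 across genes, against -0.23 to -0.07 for the other pairs. Deviations within a group sum to 0, so the negative values are no separate evidence. The block was an alternative.

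Members and gene lists were chosen with earlier results of these data known. Members with a mean of at least 1 RPKM in a group are given with all 6 values, the others by summary, or with values where called, and up to 2 called genes per list and direction are named. Alternatives were pseudocounts of 0.1 and 0.5, no filter or a filter of 1 RPKM, median-of-ratios scaling, no variance trend, mean of transcripts, the replicate block and leaving out each library. Promoter windows were read from RefSeq. Protein sequences were not used here, and results that need withheld genes are not reported here.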

Additional observations from a re-analysis of the deposited data

How the results depend on the processing

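Of 371 values of single members under the alternatives, 335 kept their direction and side of the threshold, 22 fell below the threshold, 3 newly passed it and 11 changed sign, all 11 in members without a call. Of the 20 called members, 16 kept the call in every alternative they were tested in and 0 changed direction, and the exceptions were Mmp11, Adamts6, Adamts7 and Adamts8. After median-of-ratios scaling 3962 genes were lower in place of 2451, and the summed ratios of 611 to DMSO were 1.56 for MMP and 3.62 for TIMP genes. With a filter of 1 RPKM 5 ADAMTS genes were higher in place of 9, since fewer were tested, and with no filter 1 ADAMTS gene was lower in place of 2. Leaving out each library in turn gave 7 to 8 ADAMTS genes higher, 1 to 2 lower, and 2 to 4 substrates lower. The signs that changed were those of Mmp15, Mmp24 and Mmp28 after scaling (log2 fold changes of -0.0502, -0.0468 and -0.0432). Without 1 library in turn, Adamts15 ranged from -0.1379 to 0.0701, Adamts17 from -0.1239 to 0.0408, Mmp15 from -0.0522 to 0.0882 and Mmp23 from -0.0889 to 0.0195. The cause was not tested. With the replicate number as a block, the pairing the libraries showed, 6169 genes were higher and 2700 lower, ADAMTS genes were 8 and 3, related protease genes 21 and 6 and substrates 14 and 4. The block ended the call of Adamts6 and added that of Adamts9, and changed no other member's call. The TIMP counts of 3 and 1 held in every setting. Members at 1 RPKM or below rest on few reads, and untested members allow no comparison at this depth.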

Other observations

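Replicate 2 was the highest library of both groups for 16 of the 27 tested members (59.3%), against 19.9% of the 13829 tested genes. Replicate 1 was highest in both groups for 2 members (7.41%, against 11.3% of genes) and replicate 3 for 0 (against 16% of genes). The members for which replicate 2 stood highest include Adamts1, at 46.7 RPKM with DMSO and 116 RPKM with 611 in that replicate, and Timp3, at 23.9 and 75.6 RPKM. These values are given as a description, since the members were chosen with results of these data known.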
